A study of Mus musculus with 4 samples.

Results

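The 34 genes described here encode enzymes and carriers of the tricarboxylic acid (TCA) cycle and of mitochondrial fatty acid oxidation, with the branch enzymes Glud1 and Acod1 and the mitochondrial carrier Ucp2. They were chosen by gene symbol through their Ensembl mouse identifiers, and all 34 were found among the 53379 identifiers counted. They were measured by RNA sequencing in tumour-associated macrophages of C57BL/6J mice carrying tumours of the MC38 model, taken 21 days after implantation. MC38 is a mouse colon carcinoma line. One group was 2 mice on a high-fat diet (HFD), and the other was 2 mice on a control diet (CD). The labels give no other treatment or allele for either group, and neither the composition of the diets nor the age of the mice is stated in the sources used here. The cells were sorted as positive for CD45, CD11b and F4/80, and each library is labelled as 1 mouse. The comparison asks whether transcripts of the pathway differ in these macrophages with the diet of the host.

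The TCA cycle oxidises acetyl-CoA from pyruvate and fatty acids and passes the electrons to the respiratory chain. Fatty acids enter mitochondria through the carnitine shuttle and are shortened by repeated rounds of dehydrogenation, hydration, a further dehydrogenation and thiolysis. In macrophages, inflammatory activation is known to divert the cycle towards citrate export and itaconate, whereas alternative activation is associated with fatty acid oxidation.

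The HFD libraries held 36898146 and 37147582 counts in total, and the CD libraries 34148682 and 37159552. Every one of the 34 genes was well covered, with 171 to 58829 reads per library, and all 34 passed the filter on low counts. Ptprc, Itgam and Adgre1, which encode the antigens of the sort, were detected in every library at 226 to 573 CPM (the usual counts-per-megaread unit, with library sizes scaled by the TMM method), and none of them was called by edgeR (adjusted p = 0.323, 0.96 and 0.823). Between mice of a diet, the median SD of the 34 genes on the log2 scale was 0.06 in the HFD pair and 0.12 in the CD pair.

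As a group the genes showed little difference between the diets, and their direction was mixed. With HFD minus CD, 19 of the 34 had a positive and 15 a negative log2 fold change, with a median of 0.06, against 0.00 over all 18422 genes tested. At an adjusted p below 0.05 in edgeR's quasi-likelihood test, 0 of the 34 genes were called, against 2.61% of all genes tested called higher and 7.91% called lower (10.5% in either direction). At an unadjusted p below 0.05 there were 6, namely Acod1, Hadh, Acadvl, Eci2, Slc25a20 and Idh3a, against 31.3% of all genes tested. DESeq2 called 1, Acod1, as lower, against 5.18% of genes called higher and 9.02% called lower (14.2% in either direction) among those it gave an adjusted p. For 22 of the 34 genes (64.7%) both HFD libraries lay on the same side of both CD libraries, a share near the 63.8% of all genes tested. Of these, 12 were higher and 10 lower, against 32.2% and 31.6% of all genes tested. The median distance from a log2 fold change to the end of its 95% interval was 0.36, so differences of the size seen for most of these genes (median of the absolute values 0.23) were not detectable with 2 mice per diet. Only Acod1 had a log2 fold change of at least 1 unit in size. Each library is bulk RNA of sorted cells, so a change in the share of a cell type and a change in RNA per cell cannot be told apart.

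**Figure D1:**
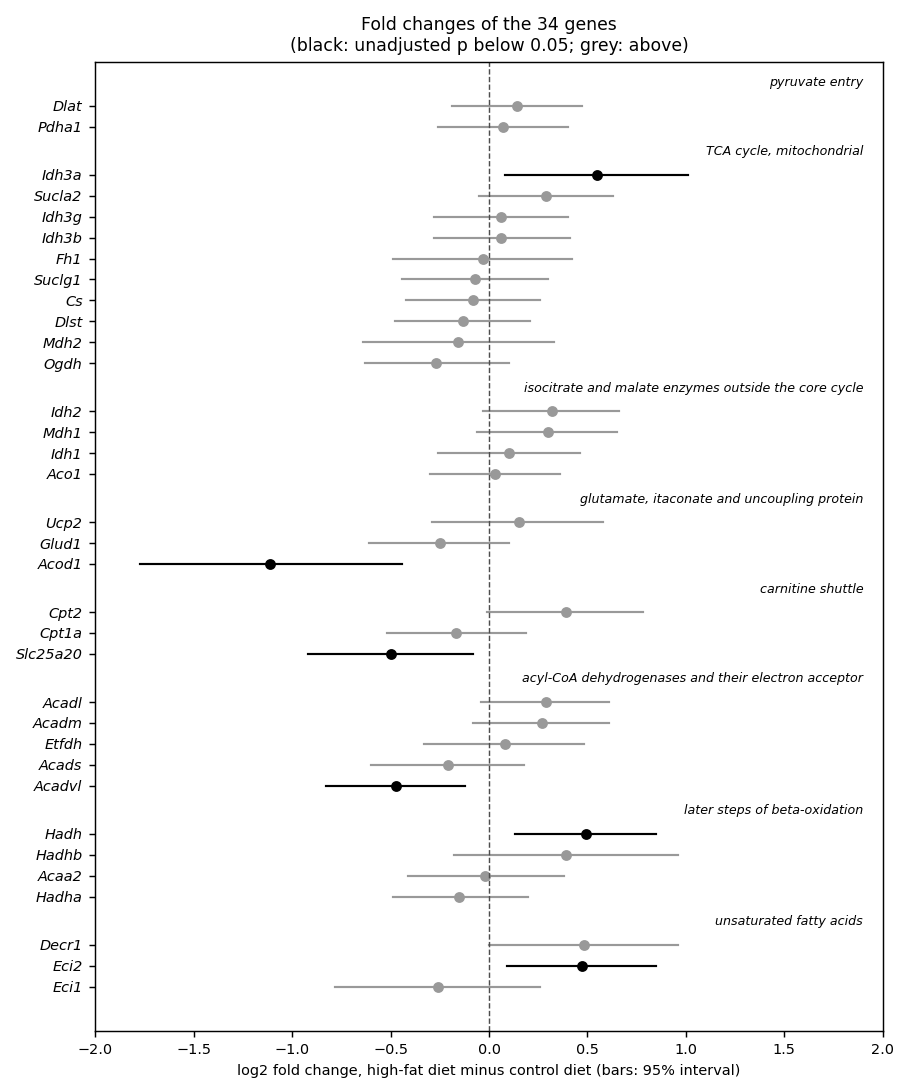
Log2 fold change, HFD minus CD, of each of the 34 genes, arranged by role, with its 95% interval from the edgeR fit (2 mice per diet); black marks an unadjusted p below 0.05. Points lie on both sides of 0, from -1.11 for Acod1 to 0.55 for Idh3a, and the intervals of the 6 black points exclude 0.

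The summed level of the genes differed little between the diets, and whether the libraries overlapped depended on which genes were summed. The 34 genes together had 3819 and 3623 CPM in the HFD libraries, against 3987 and 3512 CPM in the CD libraries. The 15 genes of fatty acid oxidation together had 499 and 518 CPM in the HFD libraries, against 523 and 505 CPM in the CD libraries. In both sums the libraries of the diets overlap. Without Ucp2, the most abundant of the genes, the remaining 33 together had 2248 and 2257 CPM in the HFD libraries, against 2539 and 2305 CPM in the CD libraries, a ratio of 0.93 without overlap. These 33 include Acod1, which had 109 and 93 CPM in the HFD libraries, against 276 and 159.6 CPM in the CD libraries. In the TCA group alone, the 17 genes other than Ucp2 and Acod1 had 1640.1 and 1645 CPM in the HFD libraries, against 1741 and 1641 CPM in the CD libraries, which overlap. Per kilobase of annotated exon, the level of Ucp2 stood first in both diets, at 210.1 CPM per kilobase in the HFD and 189.9 in the CD libraries (means, n = 2). Next in level by the mean over both diets were Acod1, with 38.6 CPM per kilobase in the HFD and 83 in the CD libraries, and Glud1, with 55.1 CPM per kilobase in the HFD and 65.8 in the CD libraries. Among the enzymes of fatty acid oxidation Acads stood first in the mean over both diets, with 19.4 CPM per kilobase in the HFD and 22.5 in the CD libraries.

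Acod1 had the largest difference of the 34 genes. It encodes aconitate decarboxylase, the enzyme that makes itaconate from the cycle intermediate cis-aconitate in activated macrophages, and lies on mouse chromosome 14 (chr14:103046977-103056573, GRCm38). Its level was 109 and 93 CPM in the HFD libraries, against 276 and 159.6 CPM in the CD libraries. Both HFD libraries lay below both CD libraries, and the CD pair was spread widely. The log2 fold change was -1.11 (SE 0.27, 95% interval -1.77 to -0.44, n = 2 per diet), with an edgeR adjusted p of 0.0543, just above the threshold. DESeq2 gave an adjusted p of 0.00157. The log2 fold change was -0.65 without CD mouse 1 (adjusted p = 0.0516) and -1.45 without CD mouse 2 (adjusted p = 0.000911). Without HFD mouse 1 the adjusted p was 0.206 and without HFD mouse 2 it was 0.232.

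The promoter window of Acod1 also differed in composition from those of the other genes. RefSeq windows on GRCm38.p6, from 250 bases before to 50 bases after a start site, matched 31 of the 34 symbols. Acod1 is shown beside Hadh, the gene of next smallest p, because the windows contrast; capitals mark TATAAA on either strand and every CG dinucleotide. The Acod1 window is chr14:103046762-103047061 on the plus strand and the Hadh window is chr3:131272052-131272351 on the minus strand.
Acod1: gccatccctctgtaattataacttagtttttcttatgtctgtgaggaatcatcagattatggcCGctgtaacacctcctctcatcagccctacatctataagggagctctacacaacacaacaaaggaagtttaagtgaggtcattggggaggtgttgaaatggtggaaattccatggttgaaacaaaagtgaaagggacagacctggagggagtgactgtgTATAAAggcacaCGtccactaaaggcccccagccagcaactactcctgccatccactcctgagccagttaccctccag
Hadh: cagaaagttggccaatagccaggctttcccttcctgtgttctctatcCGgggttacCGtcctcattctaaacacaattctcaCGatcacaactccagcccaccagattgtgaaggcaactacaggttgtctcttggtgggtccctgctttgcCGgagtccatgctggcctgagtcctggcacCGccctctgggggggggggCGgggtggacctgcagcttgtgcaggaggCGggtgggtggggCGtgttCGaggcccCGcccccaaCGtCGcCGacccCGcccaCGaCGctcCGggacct
Acod1 carried TATAAA starting 28 bases before the start site, and was the only one of the 31 to hold these letters, which 15.7% of 27025 genes with a window held. It had 2 CG dinucleotides and a GC content of 47%, the lowest of the 31, whereas Hadh had 17 and 63%. The median of the 31 was 18 CG dinucleotides and 62% GC, against 7 and 52.7% over all genes. AAGGTCA, a nuclear receptor motif, was in the windows of Acadm and Ogdh (6.45% of the 31, 5.38% of all genes), searched on both strands.

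Markers of other cells moved in the same libraries as Acod1. Neutrophils also express Acod1, and S100a8 and S100a9, calcium-binding proteins abundant in neutrophils, fell in the HFD libraries. S100a8 had 1.95 and 1.43 CPM in the HFD libraries, against 22.7 and 13.1 CPM in the CD libraries (edgeR adjusted p = 0.00944). S100a9 had 2.75 and 2.19 CPM in the HFD libraries, against 55.4 and 24.8 CPM in the CD libraries (adjusted p = 0.0102). These and Acod1 were highest in CD mouse 1. Of 11 tested neutrophil markers edgeR called 7 lower and 0 higher, against 7.91% and 2.61% of all genes tested. All 11 had a negative log2 fold change. Ly6g held few reads, with 0 counts in both HFD libraries, against 10 in CD mouse 1 and 30 in CD mouse 2. The 12 listed markers summed to 193 and 171 CPM in the HFD libraries, against 402 and 197 CPM in the CD libraries. Most of that sum was Mmp9 and Csf3r. Mmp9 had 104 and 81.5 CPM in the HFD libraries, against 124 and 73.5 CPM in the CD libraries (adjusted p = 0.86). Csf3r had 80.8 and 83 CPM in the HFD libraries, against 138 and 71.6 CPM in the CD libraries (adjusted p = 0.45).

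Other marker lists held called genes as well. Of all genes tested, edgeR called 2.61% higher and 7.91% lower, and 31.3% had an unadjusted p below 0.05. Fibroblast and pericyte markers summed to 2045 and 2031 CPM in the HFD libraries, against 1027 and 776 CPM in the CD libraries, with 6 of 10 called higher. Of these sums Col3a1 held 1690.4 and 1539.9 CPM in the HFD libraries, against 890.4 and 674 CPM in the CD libraries. Fap had a negative log2 fold change (-0.95), and the other 9 were positive. Epithelial markers summed to 39.6 and 46.2 CPM in the HFD libraries, against 158 and 118 CPM in the CD libraries, with 6 of 7 tested called lower. Cdh1, the tested gene not called (edgeR adjusted p = 0.0975), held most of that sum in the HFD libraries and in CD mouse 1. It had 38.5 and 45.2 CPM in the HFD libraries, against 144 and 57 CPM in the CD libraries. Each other epithelial marker was highest in CD mouse 2. Among them, Krt8 had 0.0801 and 0.0521 CPM in the HFD libraries, against 2.31 and 16.2 CPM in the CD libraries. Dendritic cell markers summed to 133 and 156 CPM in the HFD libraries, against 259 and 124 CPM in the CD libraries, with 2 of 9 called lower. Of these sums Fscn1 held 108 and 124 CPM in the HFD libraries, against 125 and 60.3 CPM in the CD libraries. Fscn1 was the 1 dendritic cell marker with a positive log2 fold change (0.32), and the other 8 were negative. Lymphocyte markers summed to 30.1 and 26.3 CPM in the HFD libraries, against 105 and 28 CPM in the CD libraries, with 1 of 10 tested called higher and 2 lower. The remaining lists held no gene called by edgeR. Endothelial markers summed to 41.9 and 57.7 CPM in the HFD libraries, against 91.4 and 51.3 CPM in the CD libraries, with 0 of 4 tested called by edgeR or DESeq2 and 2 at an unadjusted p below 0.05. Pecam1 held most of that sum, with 26.5 and 40.3 CPM in the HFD libraries, against 78.2 and 43.1 CPM in the CD libraries. It was the 1 tested endothelial marker with a negative log2 fold change (-0.86), and the other 3 were positive, up to 1.18. None of the 5 adipocyte markers passed the filter, and they summed to at most 0.104 CPM in the HFD libraries and 0.618 CPM in the CD libraries. Macrophage markers summed to 15545 and 16189 CPM in the HFD libraries, against 13022 and 16004 CPM in the CD libraries, with 0 of 11 called by edgeR or DESeq2 and 2 at an unadjusted p below 0.05. The part of these other cells in the values of the 34 genes was not tested.

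**Figure D2:**
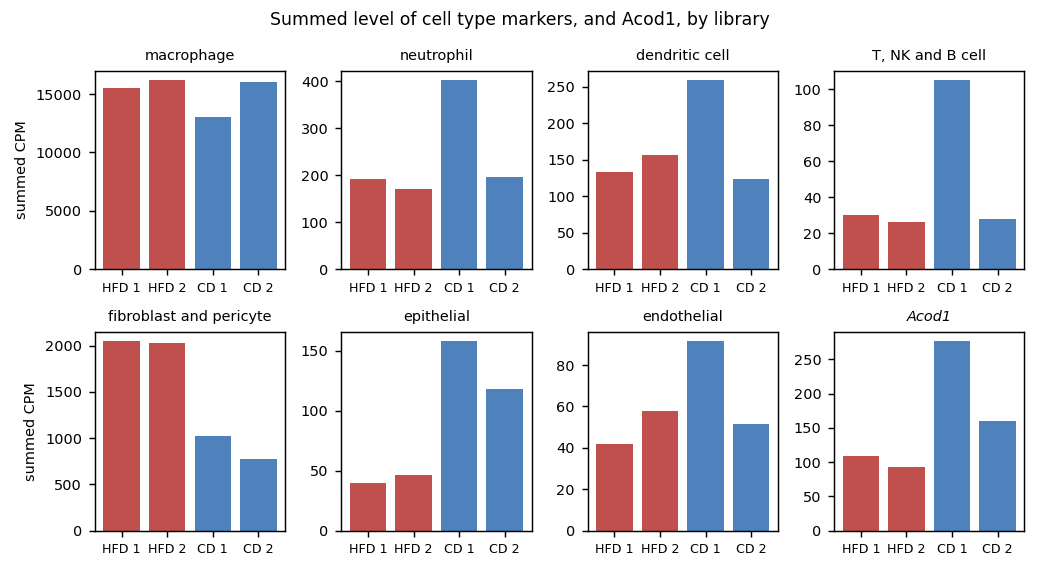
Summed CPM of the cell type marker lists other than adipocyte, and the CPM of Acod1, with 1 bar per library (red, HFD; blue, CD; axes start at 0 and differ between panels). Acod1 and the neutrophil, dendritic cell, lymphocyte, epithelial and endothelial sums were highest in CD mouse 1, while the fibroblast and pericyte sum was higher in both HFD libraries.

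Ucp2 and Glud1, the other branch genes, had overlapping or closely spaced levels. Ucp2 encodes an inner-membrane carrier abundant in macrophages. It had 1571 and 1366 CPM in the HFD libraries, against 1448 and 1206 CPM in the CD libraries (log2 fold change 0.15, 95% interval -0.29 to 0.58, edgeR adjusted p = 0.614), and the groups overlapped. On the opposite strand, exons of Dnajb13 share 305 bases with Ucp2. Dnajb13 held 223 and 234 reads in the HFD libraries, against 860 and 1123 in the CD libraries, while Ucp2 held at least 44876. Glud1, glutamate dehydrogenase, which feeds glutamate carbon into the cycle, had 243 and 221 CPM in the HFD libraries, against 272 and 282 CPM in the CD libraries (log2 fold change -0.25, 95% interval -0.61 to 0.10, adjusted p = 0.282). Its HFD libraries were both below the CD libraries, by less than the test could call.

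Entry of pyruvate and the first steps of the cycle showed small differences apart from Idh3a. Pdha1 and Dlat, subunits of the pyruvate dehydrogenase complex, had log2 fold changes of 0.07 and 0.14. Cs, citrate synthase, had 209 and 205 CPM in the HFD libraries, against 224 and 214 CPM in the CD libraries, a log2 fold change of -0.08 with a 95% interval of -0.42 to 0.26. Idh3a encodes the catalytic alpha subunit of the NAD-dependent isocitrate dehydrogenase. It had 55.8 and 40.9 CPM in the HFD libraries, against 30.9 and 35.3 CPM in the CD libraries (log2 fold change 0.55, SE 0.19, 95% interval 0.08 to 1.01, edgeR adjusted p = 0.117). Both HFD libraries were higher, and mouse 1 stood above mouse 2. Without HFD mouse 1 the log2 fold change of Idh3a was 0.32 (adjusted p = 0.543). The partner subunits Idh3b and Idh3g each had a log2 fold change of 0.06, with 95% intervals of -0.28 to 0.41 and -0.28 to 0.40. Idh3b had 109.9 and 123 CPM in the HFD libraries, against 109.8 and 113 CPM in the CD libraries, and Idh3g had 84.4 and 93.5 CPM in the HFD libraries, against 84.1 and 86.6 CPM in the CD libraries. The groups overlapped for both partners, and whether Idh3a differed from its partners was not tested.

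The later steps of the cycle also lay within the error. Ogdh and Dlst, subunits of the oxoglutarate dehydrogenase complex, had log2 fold changes of -0.27 and -0.13. Ogdh had 165 and 175 CPM in the HFD libraries, against 219 and 190 CPM in the CD libraries (95% interval -0.63 to 0.10, edgeR adjusted p = 0.279). Sucla2, the ATP-forming beta subunit of succinyl-CoA ligase, had 31.1 and 29.5 CPM in the HFD libraries, against 24.2 and 25.4 CPM in the CD libraries (log2 fold change 0.29, 95% interval -0.05 to 0.63, adjusted p = 0.215), without overlap. Its alpha partner Suclg1 had overlapping libraries and a log2 fold change of -0.07. Fh1, fumarase, had 27.1 and 37 CPM in the HFD libraries, against 33.8 and 31.7 CPM in the CD libraries, and its log2 fold change of -0.03 was 0.19 without HFD mouse 1 and -0.25 without HFD mouse 2. Mdh2, the mitochondrial malate dehydrogenase, had 144 and 161 CPM in the HFD libraries, against 199 and 141 CPM in the CD libraries. CD mouse 1 alone stood high for Mdh2, and the log2 fold change of -0.16 was 0.11 without that mouse.

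The cytosolic and NADP-dependent enzymes beside the core cycle had positive log2 fold changes that did not pass the test. Idh2, the mitochondrial NADP-dependent isocitrate dehydrogenase, had 92 and 95.6 CPM in the HFD libraries, against 79.7 and 71 CPM in the CD libraries (log2 fold change 0.32, 95% interval -0.03 to 0.66, edgeR adjusted p = 0.187). Mdh1, the cytosolic malate dehydrogenase, had 99.6 and 93.4 CPM in the HFD libraries, against 73.5 and 83.6 CPM in the CD libraries (0.30, 95% interval -0.06 to 0.65, adjusted p = 0.218). Neither gene overlapped between the diets, as was the case for 63.8% of all genes tested. Idh1, the cytosolic NADP-dependent enzyme, and Aco1, the cytosolic aconitase that doubles as an iron-regulatory protein, overlapped, at log2 fold changes of 0.10 and 0.03.

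In the carnitine shuttle the members differed in sign. Cpt1a encodes the outer-membrane carnitine palmitoyltransferase, the regulated entry step of the pathway. It had 84.6 and 80.8 CPM in the HFD libraries, against 99.6 and 86.4 CPM in the CD libraries (log2 fold change -0.17, 95% interval -0.52 to 0.19, edgeR adjusted p = 0.466). Slc25a20, the carnitine-acylcarnitine translocase, had 19.3 and 18.8 CPM in the HFD libraries, against 30.1 and 23.7 CPM in the CD libraries (-0.50, SE 0.18, 95% interval -0.92 to -0.08, adjusted p = 0.116). Cpt2, the inner-membrane transferase that restores acyl-CoA, had 19.4 and 22.3 CPM in the HFD libraries, against 16.1 and 15.8 CPM in the CD libraries (0.39, 95% interval -0.01 to 0.78, adjusted p = 0.167). The libraries did not overlap for any of these genes, as for 63.8% of all genes tested, and none passed the test. The log2 fold change of Slc25a20 was -0.66 without CD mouse 2 and -0.31 without CD mouse 1.

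The acyl-CoA dehydrogenases, which start each round and differ in the chain length they prefer, were split too. Acadvl, for very long chains, had 29.7 and 29.3 CPM in the HFD libraries, against 44 and 37.9 CPM in the CD libraries (log2 fold change -0.47, SE 0.15, 95% interval -0.83 to -0.12, edgeR adjusted p = 0.0898). Its log2 fold change was -0.57 without CD mouse 2 and -0.36 without CD mouse 1. Acadl, for long chains, had 44 and 44.4 CPM in the HFD libraries, against 37 and 35.5 CPM in the CD libraries (0.29, 95% interval -0.04 to 0.61, adjusted p = 0.2). Acadvl and Acadl thus lay on opposite sides. Acadm, for medium chains, had 31.6 and 30.5 CPM in the HFD libraries, against 24.7 and 26.8 CPM in the CD libraries (0.27, 95% interval -0.08 to 0.61, adjusted p = 0.247). Acads, for short chains, had 39.3 and 48.8 CPM in the HFD libraries, against 51.9 and 50.1 CPM in the CD libraries (-0.21, adjusted p = 0.406). None of these dehydrogenases overlapped between the diets, Acadvl and Acads being lower and Acadl and Acadm higher. Of all genes tested, 63.8% did not overlap. Etfdh, which passes the electrons to ubiquinone, overlapped at a log2 fold change of 0.08. Acadvl shares 1151 exon bases with Dvl2 on the opposite strand, which held 1495 and 1520 reads in the HFD libraries, against 1659 and 1877 in the CD libraries, more than Acadvl itself. The strand setting of the counting is not given in the sources used here, so reads of the shared stretch may belong to either gene. The same holds for Etfdh, with 278 exon bases shared with 4930579G24Rik, and for Pdha1, with 603 shared with Map3k15, both on opposite strands.

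Among the later steps, Hadh had the smallest p. Hadh, the hydroxyacyl-CoA dehydrogenase for medium and short chains, had 39.9 and 42.6 CPM in the HFD libraries, against 27.4 and 31.4 CPM in the CD libraries (log2 fold change 0.49, SE 0.15, 95% interval 0.13 to 0.85, edgeR adjusted p = 0.0837). The HFD libraries were both higher, and the log2 fold change was 0.59 without CD mouse 2 and 0.40 without CD mouse 1. Acaa2, the mitochondrial thiolase, overlapped at a log2 fold change of -0.02. For unsaturated fatty acids, Eci2, an enoyl-CoA isomerase, had 24.4 and 25.4 CPM in the HFD libraries, against 16.8 and 19.2 CPM in the CD libraries (0.47, SE 0.16, 95% interval 0.09 to 0.85, adjusted p = 0.106). Decr1, the dienoyl-CoA reductase, had 12.8 and 12.9 CPM in the HFD libraries, against 8.2 and 10.2 CPM in the CD libraries (0.48, 95% interval 0.00 to 0.96, adjusted p = 0.161). Both were higher without overlap, as were 32.2% of all genes tested, whereas Eci1, the other mitochondrial isomerase, overlapped at -0.26 (adjusted p = 0.448). Eci1 starts 0.74 kb past the 3' end of the expressed gene Rnps1 on the same strand.

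**Figure D3:**
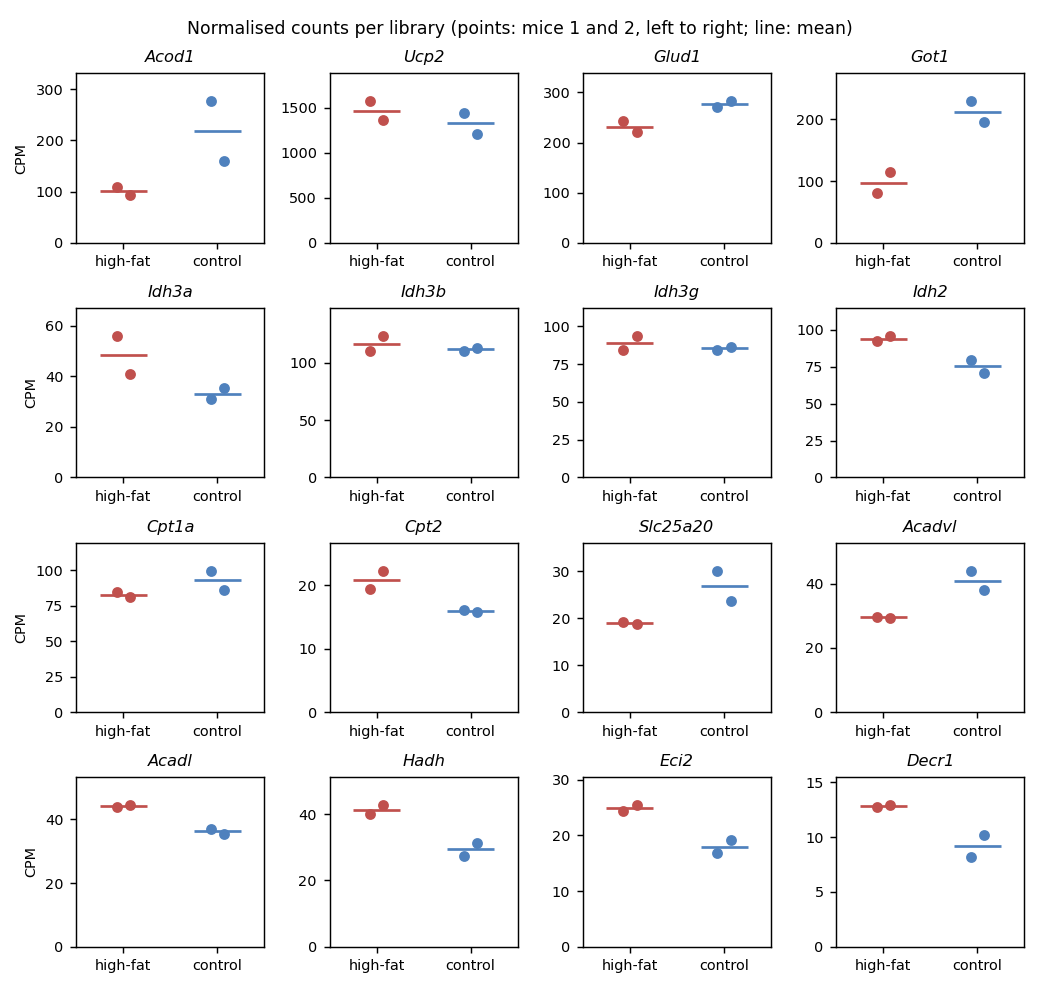
CPM of genes from the branch, isocitrate and fatty acid oxidation groups, and of Got1, in each library (red, HFD; blue, CD; points are mice 1 and 2, lines are means; axes start at 0 and differ between panels). Idh3b and Idh3g overlap between the diets while Idh3a does not, and Slc25a20 and Acadvl lie lower while Hadh, Eci2 and Decr1 lie higher in both HFD libraries.

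Hadha and Hadhb encode the alpha and beta subunits of the trifunctional protein, which carries out the last steps for long chains. The counts of Hadhb share sequence with near-identical copies. Hadha had 88.3 and 97.8 CPM in the HFD libraries, against 105 and 101 CPM in the CD libraries (log2 fold change -0.15, 95% interval -0.49 to 0.20). Hadhb had 8.49 and 7.22 CPM in the HFD libraries, against 5.27 and 6.72 CPM in the CD libraries (0.39, 95% interval -0.18 to 0.96, edgeR adjusted p = 0.306). Per kilobase of exon the level of Hadhb was the lowest of the 34 genes, at 1.19 CPM in the HFD and 0.909 CPM in the CD libraries, against 10.7 CPM in the HFD and 11.8 CPM in the CD libraries for Hadha. A processed pseudogene, Gm13910 (chr2:108948806-108950233, GRCm38), covers the whole coding sequence of Hadhb (chr5:30155248-30184593). Over 1428 aligned bases it differs by 3 substitutions, and the longest identical stretch is 685 bases. Windows of 60 bases around 1 of these differences show how close the copies are, with the differing base in capitals.
Hadhb: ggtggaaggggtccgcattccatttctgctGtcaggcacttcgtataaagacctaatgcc
Gm13910: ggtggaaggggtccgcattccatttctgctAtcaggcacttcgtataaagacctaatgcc
Gm13910 held 1849 and 1737 reads in the HFD libraries, against 1664 and 1972 in the CD libraries, while Hadhb held 318 and 277 reads in the HFD libraries, against 171 and 250 in the CD libraries. With the reads of Gm13910 and of Gm9108, a copy holding at most 2 reads, added, Hadhb had 2167 and 2015 reads in the HFD libraries, against 1835 and 2224 in the CD libraries, and its log2 fold change turned to -0.08 (95% interval -0.42 to 0.26, adjusted p = 0.743). Which reads came from which locus cannot be told from the counts, and the direction of Hadhb depends on this choice. Both Gm13910 and the summing were chosen after their values were seen.

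The same search found copies of 3 further genes, and summing changed none of their directions. Glud-ps (chr7:125075351-125076007) aligns to Glud1 over 656 bases with 16 substitutions and held 2440 and 2414 reads in the HFD libraries, against 2400 and 2724 in the CD libraries. It is less alike than the copy of Hadhb, as windows of the same length show, again with differing bases in capitals.
Glud1: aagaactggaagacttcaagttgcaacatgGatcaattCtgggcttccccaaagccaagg
Glud-ps: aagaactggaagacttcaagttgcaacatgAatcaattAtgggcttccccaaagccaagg
With these reads added, Glud1 had a log2 fold change of -0.24 (95% interval -0.60 to 0.11). Acadm went to 0.19 (95% interval -0.14 to 0.53) with the 185 and 205 reads in the HFD and 189 and 222 reads in the CD libraries of Gm5131. The copy of Eci2, Gm15280, held 0 reads in all 4 libraries.

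**Figure D4:**
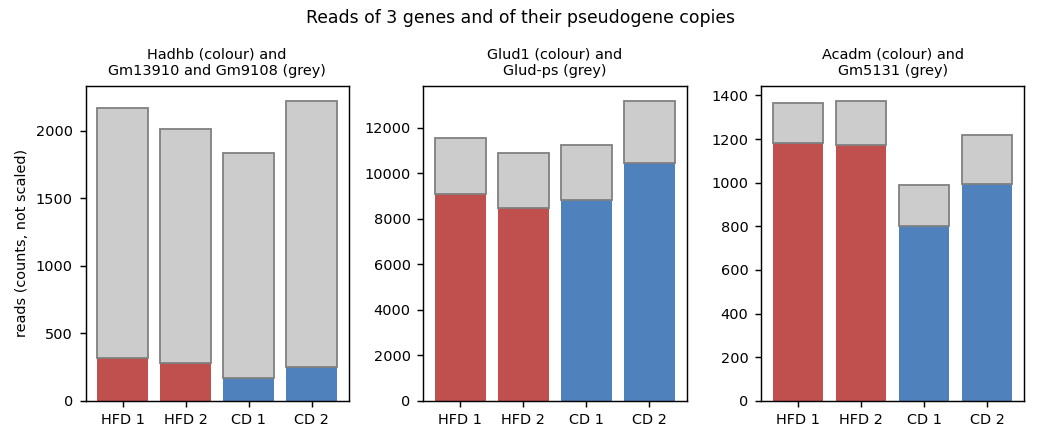
Reads per library of Hadhb, Glud1 and Acadm (red, HFD; blue, CD) with the reads of their pseudogene copies stacked in grey (counts not scaled for library size; axes start at 0). The grey part exceeds the coloured part in each library for Hadhb only.

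Other genes of the pathway and regulators, from 6 lists, were read from the same fit. Of 84 listed genes 78 were tested, and at an edgeR adjusted p below 0.05 there were 2 higher and 5 lower, with a median log2 fold change of 0.08, against 2.61% higher and 7.91% lower and a median of 0.00 over all genes tested. DESeq2 called 6 higher and 6 lower, against 5.18% called higher and 9.02% called lower among the genes it gave an adjusted p. The balance of directions differed between the tools over all genes too. There edgeR called 480 higher and 1457 lower, and DESeq2 called 1075 higher and 1871 lower. Of 12 tested genes of pyruvate entry and its control, edgeR called 1 lower and 0 higher. Pdp2, a phosphatase that activates pyruvate dehydrogenase, had 17.5 and 13.7 CPM in the HFD libraries, against 29.1 and 31 CPM in the CD libraries (log2 fold change -0.95, SE 0.18, adjusted p = 0.0317). Its libraries did not overlap, and the call ended without HFD mouse 1 (adjusted p = 0.0798) and without HFD mouse 2 (adjusted p = 0.164).

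Of 8 tested further enzymes and assembly factors of the cycle, edgeR called 0, with 2 at an unadjusted p below 0.05, and DESeq2 called 1, Suclg2. Of all genes tested, edgeR called 10.5%, and 31.3% had an unadjusted p below 0.05. DESeq2 called 14.2% of the genes it gave an adjusted p. Suclg2, the GTP-forming beta subunit of succinyl-CoA ligase, had 23 and 19.2 CPM in the HFD libraries, against 13.1 and 12.9 CPM in the CD libraries (log2 fold change 0.70, SE 0.17, edgeR adjusted p = 0.0555, DESeq2 adjusted p = 0.0304). Sdhaf1 and Sdhaf2, assembly factors of succinate dehydrogenase, had log2 fold changes of 0.84 and 0.26 (edgeR adjusted p = 0.123 and 0.258). The libraries of Suclg2 did not overlap, as was the case for 4 of the 8 genes (50%), against 63.8% of all genes tested.

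Of 18 tested genes of anaplerosis and the mitochondrial carriers, 1 rose and 2 fell in the edgeR test, and DESeq2 called 3 higher and 2 lower. Over all genes edgeR called 2.61% higher and 7.91% lower, and DESeq2 called 5.18% higher and 9.02% lower. Got1, the cytosolic aspartate aminotransferase of the malate-aspartate shuttle, had 80.6 and 114 CPM in the HFD libraries, against 229 and 196 CPM in the CD libraries (log2 fold change -1.13, SE 0.21, edgeR adjusted p = 0.03). Slc1a5, a plasma-membrane glutamine transporter, had 81.3 and 86.4 CPM in the HFD libraries, against 163 and 124 CPM in the CD libraries (-0.77, SE 0.18, adjusted p = 0.0457). Slc25a10, the mitochondrial dicarboxylate carrier, had 52.1 and 53.1 CPM in the HFD libraries, against 31.5 and 35.7 CPM in the CD libraries (0.65, SE 0.14, adjusted p = 0.0419). None of the 3 overlapped between the diets, as was the case for 63.8% of all genes tested. The genes called by DESeq2 alone were named after their values were seen. Me1, the cytosolic malic enzyme, had 18.9 and 15.5 CPM in the HFD libraries, against 9.93 and 5.62 CPM in the CD libraries (a fitted ratio of HFD to CD of 2.22, edgeR adjusted p = 0.0615, DESeq2 adjusted p = 0.00527). Gpt2, the mitochondrial alanine aminotransferase, had 29.5 and 28.7 CPM in the HFD libraries, against 19.9 and 17.2 CPM in the CD libraries (log2 fold change 0.65, SE 0.16, edgeR adjusted p = 0.0501, DESeq2 adjusted p = 0.0285). Both lay higher in both HFD libraries, as did 32.2% of all genes tested. The call of Got1 ended without HFD mouse 1 (adjusted p = 0.142). Those of Slc1a5 and Slc25a10 ended without any 1 library but CD mouse 2, with adjusted p from 0.0667 to 0.24.

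Against 7.91% of all genes tested called lower and 2.61% called higher, edgeR called 1 lower and 0 higher of 17 tested further genes of mitochondrial fatty acid oxidation. Their log2 fold changes were positive for 10 and negative for 7. Cpt1b, the muscle form of the carnitine palmitoyltransferase, had 0.24 and 0.365 CPM in the HFD libraries, against 1.42 and 1.21 CPM in the CD libraries (log2 fold change -2.10, SE 0.45, edgeR adjusted p = 0.0395). Per kilobase of exon its level was 0.0897 CPM in the HFD and 0.39 CPM in the CD libraries, against 10.8 CPM in the HFD and 12.2 CPM in the CD libraries for Cpt1a. Cpt1b starts 0.497 kb past the 3' end of the expressed gene Chkb on the same strand. It was lower in both HFD libraries, and its call ended without HFD mouse 1 (adjusted p = 0.262) and without HFD mouse 2 (0.146).

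Of 10 tested peroxisomal genes edgeR called 0, against 10.5% of all genes tested, and DESeq2 called 1, Scp2, against 14.2%. At an unadjusted p below 0.05 there were 3, a share near the 31.3% of all genes tested. Abcd3, a transporter of the peroxisomal membrane, had 30.3 and 32.4 CPM in the HFD libraries, against 17.4 and 22.9 CPM in the CD libraries (log2 fold change 0.64, SE 0.18, edgeR adjusted p = 0.0752). Scp2, whose products include a peroxisomal thiolase, had 77.3 and 54.1 CPM in the HFD libraries, against 36.5 and 44.9 CPM in the CD libraries (0.69, SE 0.22, edgeR adjusted p = 0.0898, DESeq2 adjusted p = 0.0405). Crot, the peroxisomal carnitine octanoyltransferase, had 25.4 and 22.3 CPM in the HFD libraries, against 13.8 and 19.1 CPM in the CD libraries (0.53, SE 0.21, edgeR adjusted p = 0.142). Both HFD libraries lay above both CD libraries for each of these 3 genes, as for 32.2% of all genes tested. None of the 3 passed the edgeR test. Without CD mouse 2 the log2 fold changes of Abcd3, Scp2 and Crot were 0.85, 0.85 and 0.79. Without CD mouse 1 they were 0.46, 0.55 and 0.33.

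Of 13 tested regulators 1 rose and 1 fell in the edgeR test, and DESeq2 called 1 higher and 2 lower. The shares over all genes were 2.61% higher and 7.91% lower in edgeR, and 5.18% higher and 9.02% lower in DESeq2. The further gene that DESeq2 called lower was Nfe2l2, a transcription factor of the oxidative stress response, named after its values were seen (log2 fold change -0.57, edgeR adjusted p = 0.0622, DESeq2 adjusted p = 0.0284). Irf1, a transcription factor of the interferon response, had 337 and 254 CPM in the HFD libraries, against 925 and 649 CPM in the CD libraries (log2 fold change -1.41, SE 0.24, edgeR adjusted p = 0.0261, and 0.101 without HFD mouse 2). Like Acod1, Irf1 was highest in CD mouse 1. Prkaa1, a catalytic subunit of the energy sensor AMPK, had 73.9 and 50.1 CPM in the HFD libraries, against 41.5 and 52.5 CPM in the CD libraries. Its libraries overlapped (log2 fold change 0.40, edgeR adjusted p = 0.279). Prkaa2, the other catalytic subunit, had 2.48 and 2.08 CPM in the HFD libraries, against 0.894 and 0.78 CPM in the CD libraries (1.45, SE 0.33, edgeR adjusted p = 0.0462). Prkaa2 held 93 and 80 reads in the HFD libraries, against 29 and 29 in the CD libraries. Its call ended without HFD mouse 1 (adjusted p = 0.297) and without HFD mouse 2 (0.171).

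**Figure D5:**
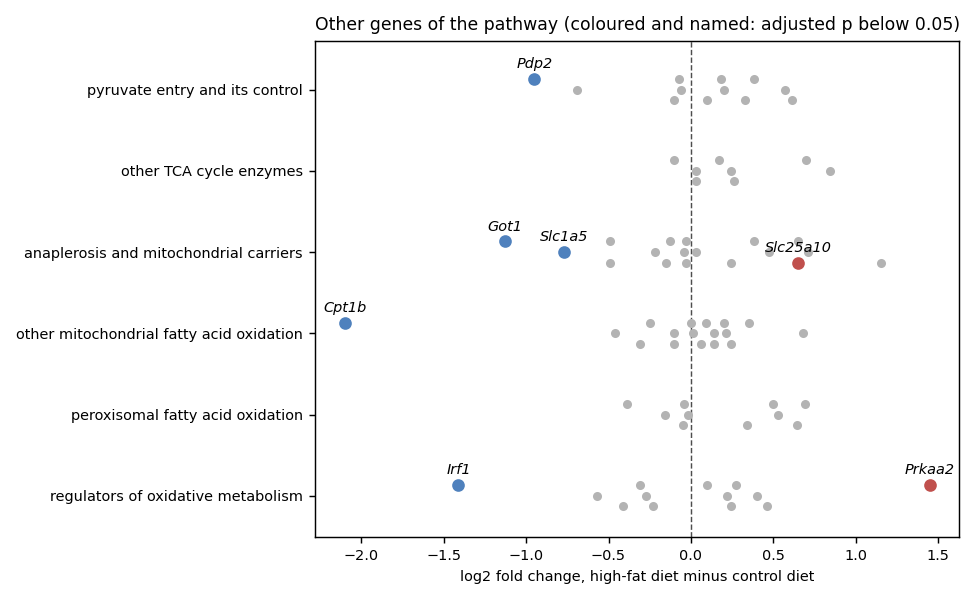
Log2 fold change, HFD minus CD, of 78 other genes of the pathway and regulators in 6 lists; coloured and named points passed an edgeR adjusted p below 0.05 (red, higher; blue, lower; vertical offsets only separate points). The 2 higher genes are Slc25a10 and Prkaa2, and the 5 lower genes run from -0.77 for Slc1a5 to -2.10 for Cpt1b.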

How the data were processed

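RNA of sorted tumour-associated macrophages was sequenced in 4 libraries, 2 per diet; the labels' protocols name polyA RNA and a stranded mRNA kit. The deposited values are raw counts of reads for each gene, not normalised by the authors. The submitters' processing notes list BWA 0.7.12, DESeq2 1.24.0, cutadapt 1.15 and FastQC 0.11.5, and the builds GRCm38 and mm10. How reads were counted, on which strand, and what was done with reads matching several places is not given in the sources used here.

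Symbols were matched by identifier for 53274 of 53379 identifiers; coordinates and exon lengths come from GENCODE M21. Chromosome positions are printed only for identifiers of the same version; exon lengths and distances to neighbours also use genes whose version differs, among them Cpt1a, Hadha and Eci1. The test was that of edgeR 4.0.16, run in R 4.3.3 (filterByExpr at a count of 10 and a total of 15, TMM scaling, robust quasi-likelihood test, diet as the only term, Benjamini-Hochberg adjustment over 18422 genes, called at 0.05). Values are CPM per library; the SE is the log2 fold change over the square root of F, and 95% intervals use the fit's degrees of freedom. Each title names a mouse, so libraries were taken as separate animals. Replicate pairs differed by far more than sampling noise (chi-square per degree of freedom 39 and 60.6). Pseudogene copies were sought with blastn 2.17.0 among GENCODE transcripts, at an identity of at least 95% over at least 300 bases. Neighbouring genes count as expressed from an average of 5 on the log2 CPM scale.

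Alternatives were DESeq2 1.42.0, its size factors, no filter, leaving out each library, and the mouse number as a block. The fit was tested on simulated data. The genes and lists were chosen with earlier results of these data known. Named genes are all 34 genes, the called genes of each further list or else its 3 of smallest p, the sort markers and the 2 most abundant neutrophil markers. S100a8, S100a9, Ly6g, Cdh1, Krt8, Fscn1, Col3a1, Fap, Pecam1, Me1, Gpt2, Nfe2l2, Prkaa1 and the pseudogenes were named after their values were seen. Of the further lists, 1 gene is not reported here, and the counts of its list leave it out.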

Additional observations from a re-analysis of the deposited data

How the results depend on the processing

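With 2 mice per diet, leaving out a library takes the spread of the lone mouse from the other pair. Over all genes, such fits called from 71 to 1934 genes higher and from 300 to 2534 lower, against 480 and 1457 with all libraries; of the 34 genes they called from 0 to 1 higher and from 0 to 3 lower. The fit without CD mouse 2 made the calls among the 34, namely Hadh as higher and Acod1, Slc25a20 and Acadvl as lower. Of these fits it also called the most genes over all genes tested, in each direction, and the cause was not tested. Without the filter on low counts, 1552 genes were called higher and 2231 lower, of the 34 genes 2 higher (Idh3a, adjusted p = 0.0303, and Hadh, 0.0421) and 1 lower (Acod1, 0.0134), and the median log2 fold change of the 34 was 0.11, against 0.06. DESeq2 called 1075 genes higher and, of the 34, 1 lower. The mouse numbers of the labels say nothing of a shared litter or day, so the samples share only a number; the correlation of deviations between same-numbered mice was -0.188 over 10312 genes. The replicate block gave 567 genes higher and 1481 lower and called 1 of the 34 lower, Acod1 (adjusted p = 0.0167); among the further genes it lost the calls of Slc1a5 (0.0505), Slc25a10 (0.0726) and Prkaa2 (0.0561). The crossed pairing, chosen after seeing the data, gave 909 higher and 1546 lower, and called 0 of the 34.

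Across the alternatives, 318 values of the 34 genes kept their direction and side of the threshold, 9 newly passed it and 13 changed sign, all from fold changes that had not passed the test. Leaving out 1 library each gave log2 fold changes from -0.16 to 0.03 for Suclg1, -0.25 to 0.19 for Fh1, -0.12 to 0.10 for Acaa2, 0.00 to 0.16 for Idh3b, -0.38 to 0.11 for Mdh2, -0.05 to 0.22 for Etfdh and -0.02 to 0.08 for Aco1. Among markers it gave -0.19 to 0.27 for Itgam, -0.22 to 0.52 for Adgre1, -0.41 to 0.34 for Mmp9 and -0.76 to 0.20 for Csf3r. Without the filter, Fh1 stood at 0.01 and Acaa2 at 0.03. With the reads of its copies added, chosen after seeing the data, Hadhb stood at -0.08.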
